A study of Mus musculus with 10 samples.

Results

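The genes of amino sugar and sialic acid synthesis were read from the livers of *db/db* mice that had received AAV8-Control. They were 10 of the 15126 genes in the deposited table, taken by symbol: *Gfpt1*, *Pgm3*, *Uap1*, *Gne*, *Nans*, *Nanp*, *Cmas*, *Slc35a1*, *St6gal1* and *St3gal1*. *Cmas* was chosen by its measured values in these data and the other 9 for their place in the same pathway, so all levels are a description and no test is given. Of the 10 genes, 9 had a mean of at least 1 CPM, a gene's reads scaled to the total of its library, and *Nanp* did not. Over all 15126 genes, 11041 had such a mean. The mice were male and 10 weeks old, and they lacked a working leptin receptor, which makes *db/db* mice obese and diabetic. The vector, adeno-associated virus 8, enters the liver and above all its hepatocytes, and here it encoded eGFP and had been given 5 weeks earlier. There were 5 livers with 1 library each. With no lean mice and no mice without a vector among them, what the *db/db* genotype or the virus does to these levels cannot be read from the data. The labels give liver as the tissue but primary hepatocytes as the cell type. The deposited protocol text also speaks of cultured hepatocytes and an adenovirus, while the design text and the study's methods describe liver tissue and AAV8, which is followed here.

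The label of liver was read beside markers of its cells. Hepatocyte markers would be high in isolated hepatocytes too, so they alone cannot settle the conflict between the labels. Summed over 7 hepatocyte genes, the level was 96403 to 132078 CPM. The 8 macrophage genes summed to 134 to 270 CPM, the 7 sinusoidal endothelial genes to 122.9 to 249.1 CPM, the 7 stellate cell and fibroblast genes to 235 to 315 CPM and the 6 cholangiocyte genes to 33.5 to 54 CPM. Genes of B cells, T cells and neutrophils stayed below 3 CPM in sum. Libraries held 19499795 to 35498596 counted reads, and a count of 0 allows a level of up to 0.0845 to 0.154 CPM, depending on the library. In whole liver RNA, fewer cells of a type and less RNA per cell cannot be distinguished.

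The hexosamine pathway turns fructose 6-phosphate and glutamine into UDP-N-acetylglucosamine, the amino sugar donor for glycan synthesis. Part of that donor is converted to N-acetylneuraminic acid, a sialic acid, which is activated to CMP-sialic acid in the nucleus and carried into the Golgi. There sialyltransferases attach it to the ends of glycans. Hepatocytes make most of the glycoproteins of the blood, and the sialic acid at the ends of their glycans bears on how long these proteins circulate.

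The promoters of 4 of these genes are shown because they set the head of the pathway beside its activating enzyme: *Gfpt1*, *Uap1* and *Pgm3* belong to the hexosamine pathway, and *Cmas* makes CMP-sialic acid. RefSeq promoters of the GRCm38.p6 build were at hand for 7 of the 10 genes, and not for *Nans*, *Nanp* and *St3gal1*. Each line runs 5′ to 3′ on the gene's own strand, from 250 bases before the start site through the first 30 bases of the transcript. The stretches lie at chr6:142756436-142756715 for *Cmas* and chr6:87042596-87042875 for *Gfpt1*, both on the forward strand. Those of *Uap1* and *Pgm3* lie on the reverse strand, at chr1:170174935-170175214 and chr9:86571813-86572092. Capitals mark any match, on either strand, to the core of the unfolded protein response element (ACGTG), the E-box (CACGTG, which contains ACGTG), the GC box (GGGCGG), the NF-Y box (CCAAT) or the TATA box (TATAAA), and matches that overlap are joined.
Cmas: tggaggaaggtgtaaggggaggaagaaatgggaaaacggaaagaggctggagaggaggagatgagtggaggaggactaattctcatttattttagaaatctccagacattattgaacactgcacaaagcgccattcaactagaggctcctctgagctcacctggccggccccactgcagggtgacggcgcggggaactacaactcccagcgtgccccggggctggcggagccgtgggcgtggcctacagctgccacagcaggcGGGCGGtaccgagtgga
Gfpt1: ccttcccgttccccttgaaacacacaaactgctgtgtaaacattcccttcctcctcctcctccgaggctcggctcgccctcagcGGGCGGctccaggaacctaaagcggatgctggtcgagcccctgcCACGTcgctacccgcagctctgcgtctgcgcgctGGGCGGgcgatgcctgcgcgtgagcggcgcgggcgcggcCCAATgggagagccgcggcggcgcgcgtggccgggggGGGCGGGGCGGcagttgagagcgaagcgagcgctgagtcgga
Pgm3: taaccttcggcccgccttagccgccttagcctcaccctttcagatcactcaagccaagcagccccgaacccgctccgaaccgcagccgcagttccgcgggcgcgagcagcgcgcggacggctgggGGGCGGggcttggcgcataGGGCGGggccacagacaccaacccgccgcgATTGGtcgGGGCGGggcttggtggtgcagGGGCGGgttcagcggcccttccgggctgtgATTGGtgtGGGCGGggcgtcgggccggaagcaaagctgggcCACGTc
Uap1: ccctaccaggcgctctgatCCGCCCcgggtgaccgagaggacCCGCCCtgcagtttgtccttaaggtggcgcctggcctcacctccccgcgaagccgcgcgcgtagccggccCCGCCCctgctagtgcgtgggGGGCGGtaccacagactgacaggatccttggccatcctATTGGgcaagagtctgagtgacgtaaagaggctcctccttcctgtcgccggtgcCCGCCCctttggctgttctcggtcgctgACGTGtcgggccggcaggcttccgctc

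The letters ACGTG, the core of the element bound by XBP1, a transcription factor of the unfolded protein response, were present in the promoters of all 3 hexosamine genes. They began 122 bases before the start site in *Gfpt1*, at base 4 of the transcript in *Uap1* and at base 25 in *Pgm3*. Of the 32851 promoters in the table, each from 250 bases before the start site to 50 after it, 19.6% held these letters on either strand. *Gfpt1*, *Pgm3* and *Uap1* also held several GC boxes and at least 1 NF-Y box, motifs present in 35.7% and 37.4% of all promoters. The *Cmas* promoter held a single match, a GC box at base 14 of the transcript. *Slc35a1* had a GC box 20 bases before the start site and a TATA box 159 bases before it, the latter a motif of 13.6% of all promoters. Of the 3 promoters listed for *St6gal1*, 1 held ACGTG, 211 bases before its start site, 1 held a GC box and all 3 held at least 1 NF-Y box. The 2 promoters listed for *Gne* held none of the motifs searched. The E-box, found in 7.15% of all promoters, was in none of the 10 promoters listed for the 7 genes. These matches describe the letters in this window only.

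The 3 hexosamine genes lay between 11.1 and 36.8 CPM in every liver. *Gfpt1* (ENSMUSG00000029992, chr6:87042846-87092197, forward strand), which makes glucosamine 6-phosphate and sets the rate of the pathway, was at 27.0, 23.5, 25.9, 26.4 and 24.9 CPM in replicates 1 to 5. It was among the steadiest of the 10, with a mean of 25.5 ± 1.39 CPM (SD, n = 5 livers) and a coefficient of variation of 5.43%, where counting alone would give about 3.97%. *Pgm3* (ENSMUSG00000056131, chr9:86554377-86571842, reverse strand), the mutase that makes N-acetylglucosamine 1-phosphate, was at 11.1, 11.8, 13.7, 12.6 and 12.5 CPM. Its mean of 12.3 ± 0.962 CPM (SD, n = 5) was the lowest of the 9 genes above 1 CPM, and replicate 3 was the highest liver. The gene shares 28.3% of its exon bases with *Dopey1*, on the opposite strand, which averaged 13.6 ± 0.23 CPM. The study's methods state that unambiguous reads were counted, and whether by strand is not given in the sources used here. Reads in bases shared with a neighbour may therefore have been left out of the count. Their part in the level of *Pgm3* was not tested.

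*Uap1* (ENSMUSG00000026670, chr1:170141938-170174957, reverse strand), which makes UDP-N-acetylglucosamine itself, varied more from liver to liver. It stood at 26.6, 32.5, 30.0, 36.8 and 30.4 CPM, with replicate 4 the highest and replicate 1 the lowest. The mean was 31.3 ± 3.76 CPM (SD, n = 5) and the coefficient of variation 12.0%, against 3.58% from counting alone. Among the 3722 genes whose mean lay within a factor of 2 of its own, 77.3% varied less.

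The enzymes of sialic acid synthesis differed widely in level. *Gne* (ENSMUSG00000028479, chr4:44034075-44084177, reverse strand), the epimerase and kinase that opens the sialic acid branch, was at 94.7, 104.7, 90.3, 104.3 and 107.5 CPM, with a mean of 100.3 ± 7.37 CPM (SD, n = 5). *Nans* (ENSMUSG00000028334, chr4:46489248-46503632, forward strand), the synthase that forms sialic acid 9-phosphate, was at 18.7, 17.7, 16, 15 and 18.1 CPM, with a mean of 17.1 ± 1.54 CPM. The order of livers was not the same for both: replicate 1 was the highest for *Nans* and replicate 5 for *Gne*. *Nans* shares 29.6% of its exon bases with *Trim14*, on the opposite strand, which averaged 14.2 ± 3.23 CPM and was also highest in replicate 1, at 19.4 CPM. Replicates 1 and 4, the highest and lowest livers for *Nans*, were also the highest and lowest for the sinusoidal endothelial markers, with sums of 249.1 and 122.9 CPM, and the reverse for the hepatocyte markers, with 96403 and 132078 CPM. The macrophage, stellate cell and fibroblast, and cholangiocyte markers were instead highest in replicate 2, with sums of 270, 315 and 54.0 CPM. The part of *Trim14*, of reads left out of the shared bases and of these cells in the level of *Nans* was not tested.

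*Nanp* (ENSMUSG00000053916, chr2:151029685-151039398, reverse strand), the phosphatase between *Nans* and *Cmas*, had 1 read in replicate 3 and 0 reads in the other 4 livers. That is below the level that a count of 0 allows, so no expression was detectable in these values. Whether the annotation or the counting of reads behind the table lowered *Nanp* could not be worked out, so the value says nothing firm about its expression in liver. Its exons overlap those of *Ninl* on the same strand over 9.81% of their length, and *Ninl* averaged 1.02 ± 0.188 CPM.

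*Cmas* (ENSMUSG00000030282, chr6:142756686-142775714, forward strand), the enzyme that joins sialic acid to CMP, stood at 42.9, 41.8, 44.8, 40.6 and 45 CPM in replicates 1 to 5. All 5 livers lay close together, with replicate 5 the highest and replicate 4 the lowest. The mean was 43.0 ± 1.89 CPM (SD, n = 5). Its coefficient of variation of 4.4% was the lowest of the 9 genes, against 3.06% from counting alone, and it rested on 837 to 1589 reads per library. Among the 3181 genes within a factor of 2 of its level, 12.4% varied less, and their median was 8.04%. *Cmas* was chosen by its measured values in these data, and such a choice may favour a gene of little spread. Its place by spread is thus a description only. None of its exon bases are shared with another annotated gene.

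*Slc35a1* (ENSMUSG00000028293, chr4:34663257-34687438, reverse strand), which carries CMP-sialic acid into the Golgi, was at 15.5, 17.0, 16.6, 18.8 and 17.0 CPM. The mean was 17.0 ± 1.2 CPM (SD, n = 5). Replicate 4 was its highest liver and replicate 1 its lowest, as for *Uap1*. The hepatocyte markers had the same highest and lowest livers, with sums of 132078 and 96403 CPM, and the sinusoidal endothelial markers the reverse, with 122.9 and 249.1 CPM. The macrophage, stellate cell and fibroblast, and cholangiocyte markers were highest in replicate 2 instead. The part of these cells in the levels of *Uap1* and *Slc35a1* was not tested.

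**Figure D1:**
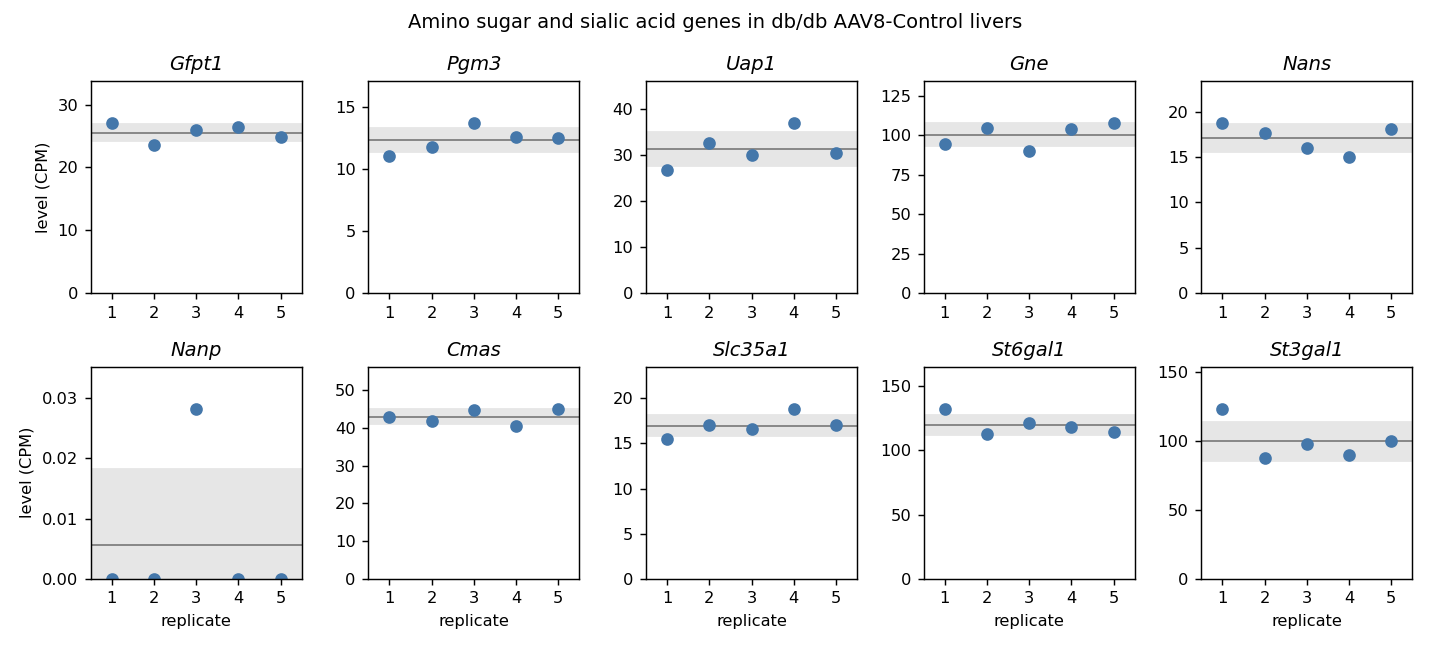
Levels in CPM of the 10 genes in each AAV8-Control liver, 1 point per liver by replicate number, with a line at the mean and a grey band of 1 SD to either side, each vertical axis starting at 0 on its own scale. *Cmas* spans 40.6 to 45 CPM, *St3gal1* is set apart in replicate 1 at 122.9 CPM, and *Nanp* has a read in replicate 3 alone.

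Both sialyltransferases were at the upper end of the 10. *St6gal1* (ENSMUSG00000022885, chr16:23224740-23360350, forward strand), which adds sialic acid in alpha-2,6 linkage to N-glycans and makes the usual cap of blood glycoproteins, was at 132.0, 112.9, 121.4, 118.4 and 114.1 CPM. *St3gal1* (ENSMUSG00000013846, chr15:67102875-67176830, reverse strand), which adds it in alpha-2,3 linkage to core O-glycans, was at 122.9, 87.8, 97.7, 89.5 and 100.0 CPM. Replicate 1 was the highest liver for both. The mean of *St6gal1* was 119.7 ± 7.64 CPM and that of *St3gal1* was 99.6 ± 14.1 CPM (SD, n = 5). With a coefficient of variation of 14.1%, *St3gal1* varied the most of the 9 genes, more than 85.3% of the 1737 genes of like level. Replicate 1 also held the highest sum of the sinusoidal endothelial markers, 249.1 CPM against at most 205.4 CPM in the other 4 livers, and the lowest sum of the hepatocyte markers, at 96403 CPM. The macrophage, stellate cell and fibroblast, and cholangiocyte markers were highest in replicate 2 and not in replicate 1. The part of these cells in the levels of *St3gal1* and *St6gal1* was not tested.

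To compare genes with each other, levels were divided by exon length and are given as CPM per kilobase. *St6gal1* stood first at 24.4 ± 1.55 CPM per kilobase (SD, n = 5), above *Gne* in all 5 livers. *Gne* at 15.8 ± 1.16 and *St3gal1* at 14.5 ± 2.05 CPM per kilobase did not differ beyond their spread, since *St3gal1* was the higher in replicates 1 and 3. *Cmas* followed at 9.13 ± 0.401 CPM per kilobase, below the lowest liver of *St3gal1*.

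Further down, the order was less firm. *Uap1* at 7.79 ± 0.936 CPM per kilobase overlapped with *Cmas* and with *Slc35a1* at 7.41 ± 0.522, and *Uap1* exceeded *Cmas* in replicate 4. With the longest transcript in place of all exon bases, *Uap1* came before *Cmas*, at 13.5 against 13.3 CPM per kilobase. *Nans* at 3.73 ± 0.337 CPM per kilobase was below *Slc35a1* and above *Pgm3* in every liver. *Pgm3* at 2.75 ± 0.214 and *Gfpt1* at 2.54 ± 0.138 CPM per kilobase overlapped. *Gfpt1* was the higher of the pair in replicate 1, so their order is not firm. With the longest transcript the levels of these 3 genes were higher, at 6.57 CPM per kilobase for *Nans*, 4.63 for *Pgm3* and 4.09 for *Gfpt1*. By all exon bases, the measure used for the ranks among all genes, *Pgm3* and *Gfpt1* were above the median of 1.6 CPM per kilobase over the 15119 genes with a length. *St6gal1* was higher than 91.0% of these genes, *Gne* than 87.6%, *St3gal1* than 86.7%, *Cmas* than 81.0% and *Gfpt1* than 58.7%.

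**Figure D2:**
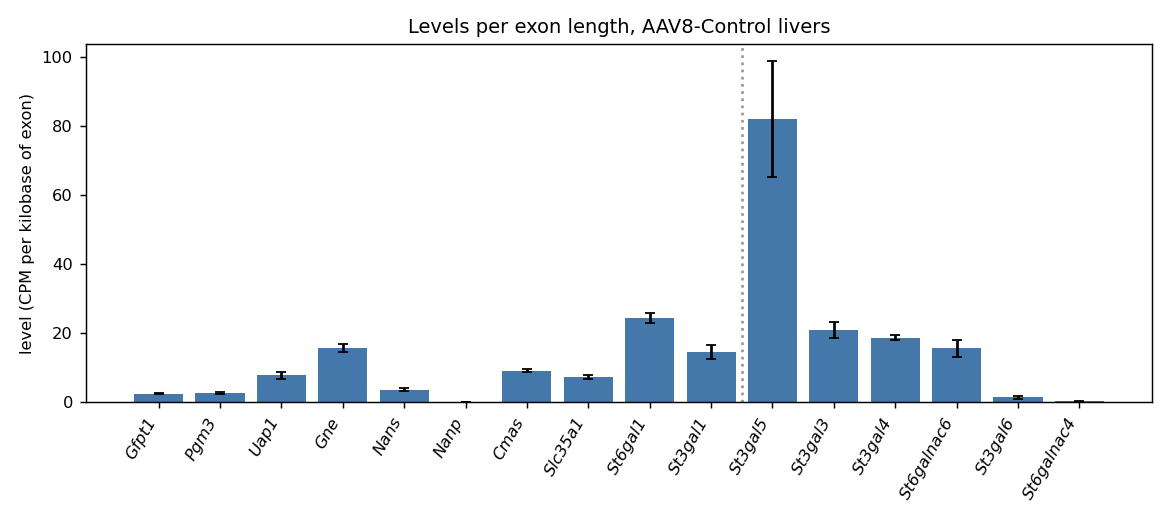
Mean level in CPM per kilobase of exon of the 10 genes, left of the dotted line, and of the 6 other sialyltransferases with the highest levels, right of it, in AAV8-Control livers, with bars of 1 SD (n = 5). *St3gal5* is the highest at 81.9, and among the 10 genes *St6gal1* leads at 24.4 and *Nanp* does not rise from 0.

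Set against the enzymes around it, *Cmas* was lower than the gene that opens the branch and higher than the synthase before it. The level per kilobase of *Cmas* was 0.582 ± 0.0585 times that of *Gne* (SD, n = 5), 2.46 ± 0.211 times that of *Nans* and 1.24 ± 0.12 times that of *Slc35a1*. The lowest ratio in any liver was 1.05 for *Cmas* to *Slc35a1*, so *Cmas* was the higher of that pair in all 5 livers. These ratios moved with the length used: with the longest transcript their means were 0.718 to *Gne*, 2.03 to *Nans* and 1.6 to *Slc35a1*. At the head of the pathway *Uap1* was 3.08 ± 0.428 times *Gfpt1*, and it was 2.47 times *Gfpt1* in the liver where the ratio was lowest. *St6gal1* was 1.69 ± 0.144 times *St3gal1*, with 1.5 as the lowest ratio.

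Of the 20 genes for sialyltransferases, 17 were in the table and 10 had a mean of at least 1 CPM. The sum of their levels per kilobase was taken up mostly by 6 of them. *St3gal5*, which makes the ganglioside GM3 from lactosylceramide, held 45.6 ± 6.33% of that sum (SD, n = 5), and its level was 214.4 ± 43.9 CPM. *St6gal1* held 13.7 ± 1.18%, *St3gal3* 11.8 ± 1.66%, *St3gal4* 10.5 ± 0.903%, *St6galnac6* 8.83 ± 1.73% and *St3gal1* 8.18 ± 1.35%. *St3gal6*, the next, held 0.819 ± 0.273%. The order among these genes turned with the length used: with the longest transcript *St6galnac6* held 14.0%, above *St6gal1* at 12.4% and *St3gal4* at 12.2%, while *St3gal5* stayed first at 40.9%. The 5 genes of the St8sia family in the table, which build chains of sialic acid on sialic acid, each stayed below 1 CPM. Shares count messenger RNA per exon length and not enzyme activity.

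The wider pathway was read from lists of its genes, described by their levels alone. Of the 6 hexosamine genes 5 were above 1 CPM, with a median of 2.64 CPM per kilobase. *Gfpt2*, the second form of the entry enzyme, was at 0.657 ± 0.109 CPM (SD, n = 5), against 25.5 CPM for *Gfpt1*. *Gnpnat1*, the acetyltransferase between *Gfpt1* and *Pgm3*, was at 27.9 ± 4.1 CPM, and *Uap1l1*, a relative of *Uap1*, at 4.29 ± 0.983 CPM. Of the 6 genes of CMP-sialic acid synthesis and transport, *Nanp* alone was below 1 CPM. *Cmah*, which converts CMP-N-acetylneuraminic acid to the glycolyl form that mice carry, was at 78.9 ± 5.24 CPM, and per kilobase it was level with *Slc35a1* at 7.41.

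Genes of amino sugar salvage were lower, with a median of 1.71 CPM per kilobase over 6 genes, all of them at 1 CPM or above. *Nagk*, the kinase that returns free N-acetylglucosamine to the pathway, was at 14.2 ± 0.534 CPM, *Renbp*, which binds renin and epimerises N-acetylglucosamine, at 2.37 ± 0.348 CPM, and *Npl*, the lyase that splits sialic acid, at 1.0 ± 0.266 CPM. Of the 7 genes of sialic acid removal 6 were above 1 CPM, with a median of 5.9 CPM per kilobase. The lysosomal sialidase *Neu1* was at 41.2 ± 4.36 CPM and its protective partner *Ctsa* at 121.1 ± 6.88 CPM, while the membrane sialidase *Neu3* was at 2.05 ± 0.575 CPM and *Neu4* had at most 0.0364 CPM in any liver.

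Receptors that read the sugar differed widely in level. *Asgr1* and *Asgr2*, the subunits of the hepatocyte receptor that clears glycoproteins lacking their terminal sialic acid, were at 425.8 ± 30.0 CPM and 163.3 ± 5.17 CPM (SD, n = 5). Of the 8 Siglec family genes in the list, which belong to immune cells and glia, only *Siglec1* at 6.02 ± 2.73 CPM and *Siglece* at 2.4 ± 0.305 CPM were above 1 CPM. *Siglec1*, a gene of macrophages, ranged from 2.75 to 9.03 CPM, beside sums of 134 to 270 CPM for the macrophage markers.

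Users of UDP-N-acetylglucosamine had a median of 5.47 CPM per kilobase over the 10 genes in the table. *Ogt*, which attaches the sugar to proteins of nucleus and cytosol, was at 50.6 ± 7.44 CPM and *Mgea5*, which removes it, at 32.9 ± 2.4 CPM. *Mgat1* at 62.2 ± 7.95 CPM and *Mgat2* at 43.8 ± 1.52 CPM, which start the arms of complex N-glycans, were far above *Mgat3* at 0.336 ± 0.0422 CPM, which adds the bisecting sugar. Of the 10 galactosyltransferases and core fucosylation genes 9 were above 1 CPM, with a median of 1.74 CPM per kilobase. *B4galt1*, which adds the galactose that sialic acid caps, was at 35.8 ± 6.79 CPM. Genes of other nucleotide sugars had the highest median of the lists, 8.46 CPM per kilobase over the 15 genes in the table, led by *Ugp2*, which makes UDP-glucose, at 408.0 ± 31.7 CPM.

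**Figure D3:**
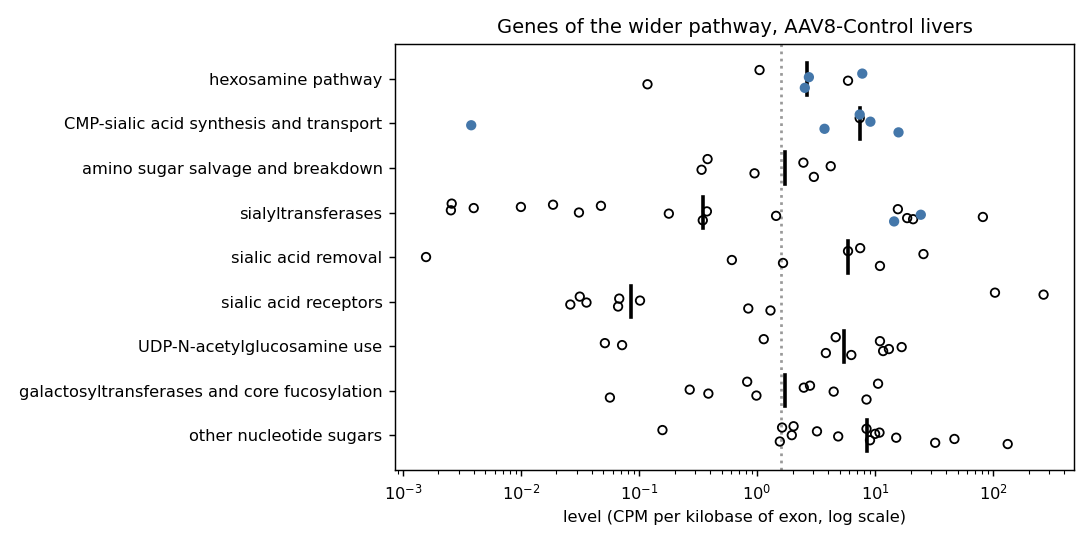
Mean level of each gene of the wider pathway in AAV8-Control livers, in CPM per kilobase of exon on a log scale, 1 point per gene by list, with the 10 genes filled, a bar at each list's median and a dotted line at the median of all genes, 1.6. The sialyltransferases spread the widest, from 0.00255 to 81.9, and the 3 filled points of the hexosamine list lie between 2.54 and 7.79.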

How the data were processed

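Livers of 5 *db/db* mice given AAV8-Control yielded 1 RNA-seq library each. Poly-A RNA was sequenced in single reads of 50 bases. Per the labels and the study's methods, the authors aligned reads with STAR 2.0.4b to Ensembl release 76 (GRCm38.p2). They counted reads that were uniquely aligned and unambiguous with featureCounts 1.4.5. The authors deposited CPM values, scaled to all reads counted on genes. The table has 15236 lines for 15126 genes, as 94 genes are repeated with identical values. Dividing by the CPM of 1 read gave whole reads for 100% of values (tolerance 0.01). The series' other libraries, and every comparison with them, are not reported here, so no test was run, a count test included.

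The 10 genes and all gene lists were chosen with earlier results of these data known. Genes named were the 10 and a set from the lists named whatever their values. *St3gal5*, *St3gal3*, *St6galnac6* and others that lead a list or share exons with a member were added after values were seen. *Uap1l1*, *Neu3*, *Neu4*, *Siglec1*, *Mgea5*, *Mgat1*, *Mgat3* and *B4galt1* were likewise not in the set named whatever their values. Means and SDs were taken over the 5 livers, with a minimum mean of 1 CPM for a gene to be counted as above it. The coefficient of variation that counting alone would give is the inverse square root of the mean reads. It is set beside the measured one, which includes counting noise and was not corrected for it. Gene positions, union exon lengths and the longest transcripts came from GENCODE release M21 (GRCm38). *Dopey1* is named Dop1a there. Alternatives were the longest transcript, median-ratio size factors and each liver left out. Computations used Python 3.11.15 and pandas 2.3.3.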

Additional observations from a re-analysis of the deposited data

How the results depend on the processing

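Levels per kilobase depended on the gene length used. With the longest transcript in place of all exon bases, the levels became 26.6 CPM per kilobase for *St6gal1*, 18.6 for *Gne*, 17.4 for *St3gal1*, 13.5 for *Uap1*, 13.3 for *Cmas*, 8.33 for *Slc35a1*, 6.57 for *Nans*, 4.63 for *Pgm3* and 4.09 for *Gfpt1*, each above its first value by more than 1 SD, since the length divided by was shorter. The order of the 10 genes then changed for *Uap1* and *Cmas* only. The ratio of *Cmas* to *Gne* went from 0.582 to 0.718 and that of *Gne* to *Nans* from 4.25 to 2.85. Median-ratio size factors and leaving out each liver in turn, alternatives added after the data were seen, moved no level by 1 SD and kept the order. With each liver left out, *Cmas* was at 9.02 to 9.26, *Uap1* at 7.45 to 8.09 and *St3gal1* at 13.7 to 15.0 CPM per kilobase. Settings that bear on tests alone (pseudocount, filters, other scalings, edgeR, DESeq2) were not run, as no test was made. No paired analysis was possible because the values come from 1 group and from no test. With 5 livers, the spread between livers is known only roughly. *Nanp* had 1 read in all, and the part of depth, annotation or counting in that was not tested.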
